A study of Mus musculus with 20 samples.

Results

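Genes of pyruvate entry, the tricarboxylic acid (TCA) cycle and mitochondrial fatty-acid oxidation were followed across muscles of a mouse model of amyotrophic lateral sclerosis. The members were 34 genes chosen by symbol: 6 of pyruvate entry, 12 of the TCA cycle and 16 of fatty-acid oxidation. On the arrays 33 of them had a probe set that names 1 gene, out of 6603 genes named in this way, and they held 54 probe sets. The only probe set listing Cpt1b, the muscle carnitine palmitoyltransferase of the outer membrane, carries several symbols, so no value is given for it. A gene was represented by its probe set with the highest mean over all arrays. Those that represent Dlat, Hadh, Acaa2 and Idh3b are of kinds that can match several transcripts.

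RNA was measured on 20 Affymetrix arrays from female C57BL/6 mice killed at 14 weeks, in 5 groups of 4 arrays. The SOD1 groups were triceps (in the fore limb) and gastrocnemius (in the calf) of transgenic mice that express human SOD1 with the G93A mutation (called SOD1), at a symptomatic stage. For the crush group, forceps were closed on the sciatic nerve at mid-thigh for 30 s at 12 weeks of age, and the gastrocnemius was taken 2 weeks after the injury. The NTg groups were gastrocnemius and triceps of non-transgenic mice. Neither the genotype of the crushed mice nor the promoter of the transgene is stated in the labels, and muscle from sham-operated mice was not analysed here. According to the design text both muscles came from 4 SOD1 and 4 NTg mice, and the titles call the replicates biological. The p-values measure the spread between these arrays.

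Pyruvate from glycolysis enters the mitochondrion and is turned into acetyl-CoA by the pyruvate dehydrogenase complex, which kinases of the Pdk family switch off by phosphorylation. Fatty acids reach the same product by another route: acyl groups are bound to carnitine, carried across the inner membrane and shortened step by step by beta oxidation. The TCA cycle burns the acetyl groups of both, and slow and oxidative muscle fibres, which work for long periods, hold more of these enzymes than fast glycolytic fibres.

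All 11 skeletal muscle markers tested (among them Acta1, Ckm and Myh4) gave signal in every group. Their summed linear signal ranged from 42800 to 72300 in SOD1, from 41900 to 79700 in crushed and from 45800 to 72100 in NTg gastrocnemius, and from 24100 to 48100 in SOD1 and from 37400 to 80000 in NTg triceps. In bulk muscle, fewer cells of a type and less RNA per cell cannot be told apart. Replicate 4 of NTg triceps is called gastrocnemius in one of its labels and triceps in the others. The slow-fibre sarcomere genes summed to between 337 and 1890 in the 4 NTg triceps arrays, that replicate included, and to between 9580 and 30900 in NTg gastrocnemius.

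One array stood apart from its group and touches every comparison with crushed muscle. Crush replicate 4 was the lowest of the 4 crush arrays for 33 of 33 members, against 37.5% of the 7523 probe sets tested. Its members lay a median of 1.01 below the mean of crush replicates 1 to 3 on the log2 scale, while the median difference of all tested probe sets was -0.0019. Pearson's r of this array with the other crush arrays, across probe sets, was 0.902 to 0.909, against 0.974 to 0.976 among replicates 1 to 3. Skeletal muscle markers summed to 79700 in replicate 4 and to between 41900 and 78900 in replicates 1 to 3. Macrophage markers summed to 1250 in it and to between 808 and 1260 in the other crush arrays, fibroblast markers to 5590 and to between 7360 and 9620, and endothelial markers to 468 and to between 699 and 891. The part of these differences in the result was not tested. The comparisons of the members with crushed muscle are therefore given with and without it.

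Seen array by array, the members moved in the same way in crush replicates 1 to 3 and in a different way in replicate 4. Taking each gene's log2 signal minus the NTg mean of the same muscle, the median over the 33 members was 0.33, 0.42 and 0.31 in crush replicates 1 to 3 and -0.69 in replicate 4. In SOD1 gastrocnemius it was 0.09, 0.02, -0.08 and -0.19 in replicates 1 to 4, so that these arrays lay on both sides of the NTg mean. In SOD1 triceps it was -0.11, -0.34, -0.24 and -0.29, below the NTg mean in every array. Of the 33 members, 24, 28 and 22 lay above the range of the NTg arrays in crush replicates 1 to 3, and 26 lay below it in replicate 4. The shares of all tested probe sets above that range were 29.1%, 30.5% and 32.3% in replicates 1 to 3, and 36.4% lay below it in replicate 4.

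**Figure D1:**
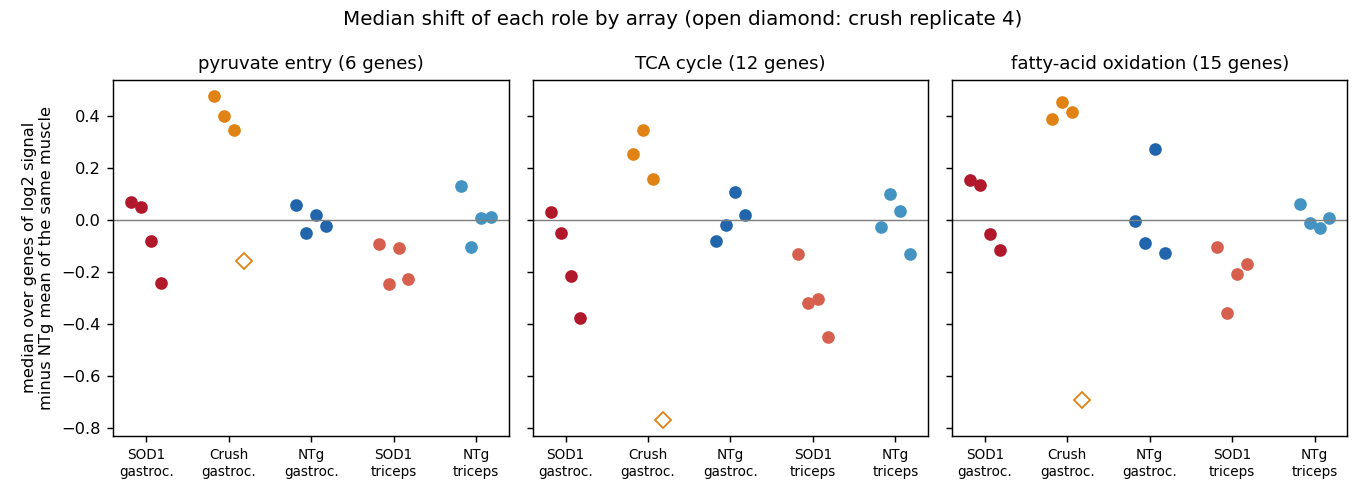
Median over the genes of each role (panels) of the log2 signal minus the NTg mean of the same muscle, on the vertical axis, for every array of the 5 groups, which stand along the horizontal axis. In fatty-acid oxidation crush replicates 1 to 3 lie at 0.39 to 0.45 and crush replicate 4 (open diamond) at -0.69; in the TCA cycle they lie at 0.16 to 0.35 and -0.77, and the 4 SOD1 triceps arrays between -0.45 and -0.13.

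**Figure D2:**
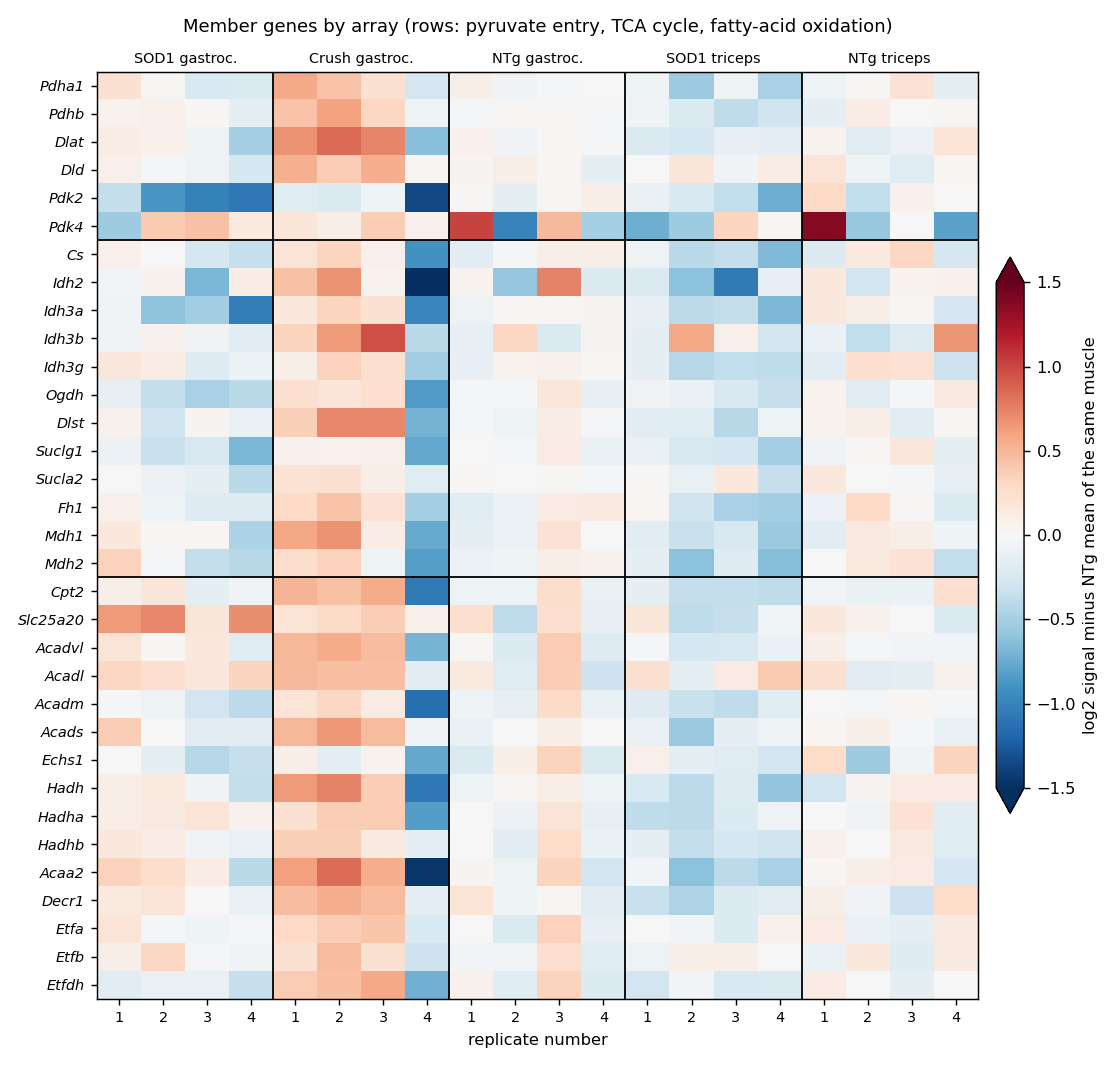
Log2 signal minus the NTg mean of the same muscle (colour) for the 33 members (down the page, by role) in each of the 20 arrays (across, by group and replicate). Crush replicate 4 is low in most genes, with 26 members below the NTg range and 0 above it.

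The first comparison set gastrocnemius of symptomatic SOD1 mice against that of NTg mice. Pdk2, a kinase that inactivates pyruvate dehydrogenase, fell, and Slc25a20, the carrier that exchanges acylcarnitine for carnitine across the inner mitochondrial membrane, rose. The other 31 members did not pass the test. The 1 higher and 1 lower call stand against 12% of all tested probe sets called, 5.97% higher and 6.02% lower. The median log2 change was -0.05 over the members and -0.0015 over all tested probe sets.

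Of the 6 genes of pyruvate entry, 1 fell and 5 did not pass, with a median log2 change of -0.06. Pdk2 had log2 signals of 9.92, 9.41, 9.27 and 9.21 in SOD1 gastrocnemius (replicates 1 to 4), against 10.30, 10.14, 10.30 and 10.38 in NTg gastrocnemius. Every SOD1 array lay below every NTg array. Groups did not overlap, with all SOD1 arrays lower, for 13.3% of tested probe sets. The Pdk2 means were 9.45 ± 0.32 and 10.28 ± 0.10 (SD, n = 4 each), a log2 change of -0.83 (SE 0.23, 95% interval -1.31 to -0.35, limma adjusted p = 0.0263), or 0.563 times the NTg level. Pdk4, the kinase of the same family that is induced by fasting, spread widely, with 10.07, 11, 11.05 and 10.75 in SOD1 and 11.62, 9.61, 11.09 and 10.11 in NTg gastrocnemius. Its log2 change was 0.11 (adjusted p = 0.892), within the spread of the NTg arrays. The subunits of the dehydrogenase complex had smaller differences: -0.05 for Pdha1 (-0.47 for its second probe set, adjusted p = 0.251) and 0.0031 for Pdhb (the alpha and beta chains of its first enzyme), -0.10 for Dlat (the acetyltransferase) and -0.07 for Dld (the dihydrolipoamide dehydrogenase).

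All 12 TCA cycle genes had a log2 change below 0 in SOD1 gastrocnemius, and 0 of them passed the test. That count uses the probe set that represents each gene, and the change nearest 0 was -0.001, for Idh3g. Both other probe sets of Mdh1 had higher means in SOD1 than in NTg gastrocnemius, 11.05 against 10.90 and 10.92 against 10.91. Of all tested probe sets 49.8% had a change above 0, and the median of the TCA cycle genes was -0.12. Under quantile scaling 10 of the 12 were below 0, with a median of -0.07. Idh3a, the catalytic subunit of the NAD-dependent isocitrate dehydrogenase, had 11.06, 10.51, 10.60 and 10.08 in SOD1 gastrocnemius, against 11.04, 11.13, 11.13 and 11.16 in NTg gastrocnemius. SOD1 replicate 1 lay within the NTg range and the other 3 below it, and the log2 change was -0.55 (SE 0.23, adjusted p = 0.116). The other probe sets of Idh3a had changes of -0.68 and -0.87. Ogdh, the first enzyme of the oxoglutarate dehydrogenase complex, had 9.77, 9.54, 9.41 and 9.49 in SOD1 and 9.86, 9.88, 10.07 and 9.77 in NTg gastrocnemius. The groups met at their edges without overlapping, and the log2 change was -0.34 (adjusted p = 0.216). Suclg1, a subunit of succinyl-CoA ligase, had a change of -0.33 (adjusted p = 0.191), and Cs, the citrate synthase that opens the cycle, of -0.13 (adjusted p = 0.714).

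The 15 fatty-acid oxidation genes had a median log2 change of 0.03, with 11 above 0 and 4 below, and 1 rose. The sign of that median turned with scaling to the 75th percentile (-0.0046, with 7 above 0). Acaa2 and Decr1 were among the 11 genes above 0, while their other probe sets had lower means in SOD1 than in NTg gastrocnemius. The means were 8.09 against 8.22 and 7.72 against 8.17 for Acaa2, and 8.26 against 8.42 for Decr1. Slc25a20 had 9.44, 9.52, 8.98 and 9.50 in SOD1 gastrocnemius, against 9.05, 8.42, 9.05 and 8.67 in NTg gastrocnemius. Of the SOD1 arrays replicate 3 lay among the NTg arrays and the other 3 above them. The means were 9.36 ± 0.26 and 8.80 ± 0.31 (SD, n = 4 each), a log2 change of 0.56 (SE 0.16, 95% interval 0.23 to 0.90, adjusted p = 0.0301), or 1.48-fold. A second probe set of Slc25a20, of a kind that can match several transcripts, had a change of 0.22 (adjusted p = 0.259). Acadl, the long-chain acyl-CoA dehydrogenase, had 10.35, 10.28, 10.21 and 10.37 in SOD1 and 10.18, 9.85, 10.40 and 9.72 in NTg gastrocnemius, with a change of 0.27 (adjusted p = 0.290). At the other end Echs1, the short-chain enoyl-CoA hydratase, had -0.24 (adjusted p = 0.450). Cpt2, the inner membrane carnitine palmitoyltransferase that acts after Slc25a20, had a change of 0.02 with a 95% interval of -0.49 to 0.52.

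Both calls were lost on leaving out some single arrays, while the log2 change kept its direction, at -0.98 to -0.75 for Pdk2 and 0.44 to 0.69 for Slc25a20. The Pdk2 call was lost on leaving out SOD1 replicate 2, 3 or 4 or NTg replicate 1, 3 or 4 (adjusted p 0.0584 to 0.0989), and that of Slc25a20 on leaving out SOD1 replicate 2 or 4 or NTg replicate 2 or 4 (0.0831 to 0.104). Crush replicate 4 is in neither group but enters the shared estimate of spread; without it 17.8% of all probe sets were called (9.24% lower), and among the members Idh3a (adjusted p = 0.0223) and Ogdh (adjusted p = 0.0265) joined Pdk2 (adjusted p = 0.00300) as lower, and Slc25a20 (adjusted p = 0.0210) remained higher. The other Idh3a probe sets also passed there (adjusted p = 0.0283 and 0.00822), as did 1 of the other probe sets of Dlat, which fell by 0.63 (adjusted p = 0.00997). Of 7 tested macrophage markers 6 also rose in SOD1 gastrocnemius, with a summed signal of 1340 to 2090 in SOD1 and 683 to 936 in NTg gastrocnemius. Their part in the result was not tested.

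**Figure D3:**
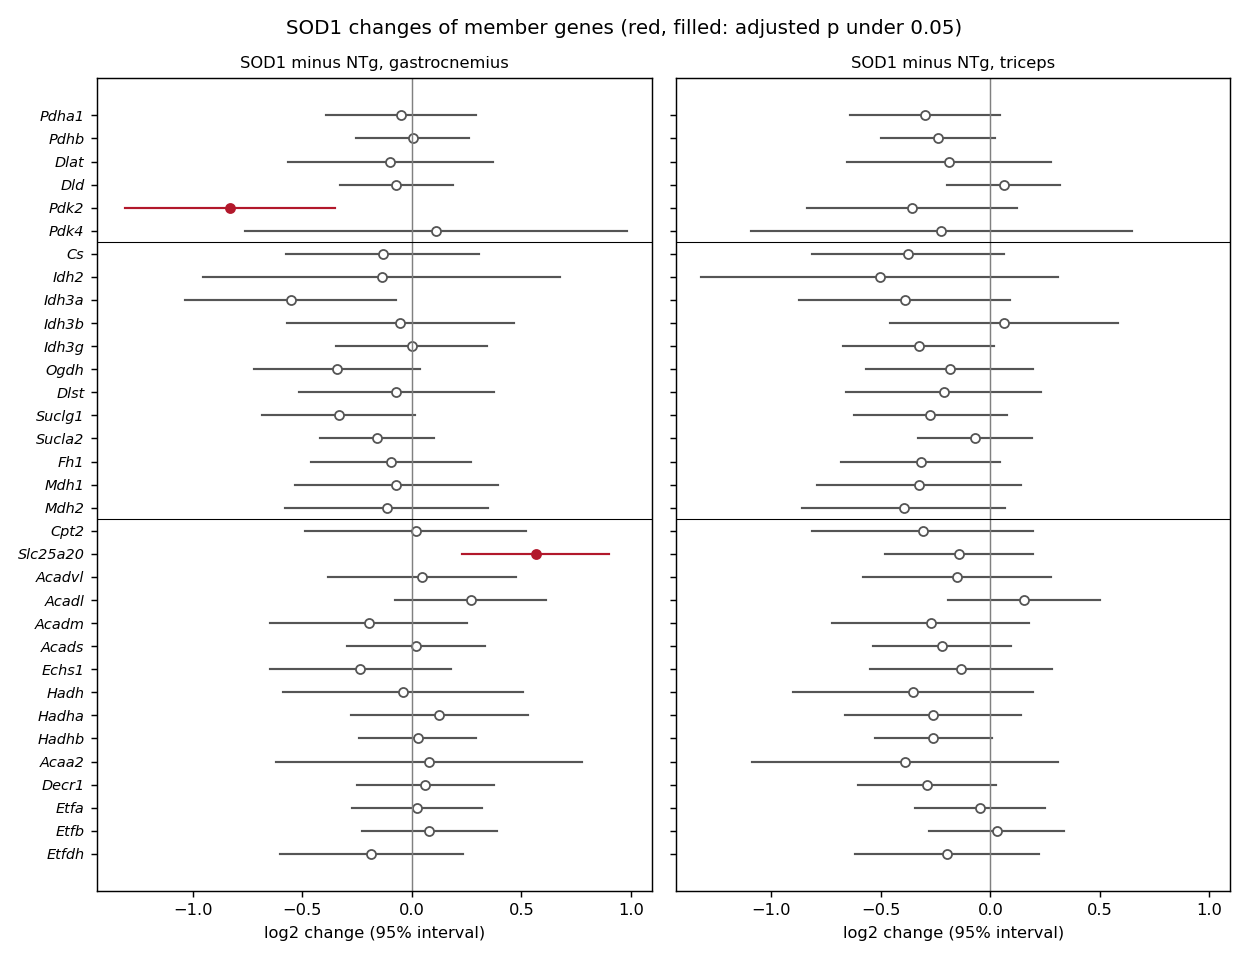
Log2 change with 95% interval (horizontal axis) of each member (vertical axis) for SOD1 minus NTg in gastrocnemius (left) and in triceps (right). Filled red points passed an adjusted p of 0.05: Pdk2 at -0.83 and Slc25a20 at 0.56 in gastrocnemius, and 0 members in triceps.

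Windows of 250 bases upstream of the annotated start were read for the members from the RefSeq promoter table of mouse build GRCm38.p6, which gave a window for 30 of the 34 members. Those of Slc25a20 and Pdk2 are shown because both genes passed the test in SOD1 gastrocnemius, in opposite directions, and those of Dlat and Hadh because among genes with a window they changed most in pyruvate entry and in fatty-acid oxidation after crush once replicate 4 was left out, though not with all 4 crush arrays. Positions are chr9:108661886-108662135 on the plus strand for Slc25a20, chr11:95041372-95041621 on the minus strand for Pdk2 (1 of 2 windows listed for that gene), chr9:50659781-50660030 on the minus strand for Dlat and chr3:131272102-131272351 on the minus strand for Hadh. Each is printed 5′ to 3′ in the direction of transcription, and capitals mark matches, on either strand, to the GC box GGGCGG or the ETS-family motif CCGGAAG.
Slc25a20 promoter: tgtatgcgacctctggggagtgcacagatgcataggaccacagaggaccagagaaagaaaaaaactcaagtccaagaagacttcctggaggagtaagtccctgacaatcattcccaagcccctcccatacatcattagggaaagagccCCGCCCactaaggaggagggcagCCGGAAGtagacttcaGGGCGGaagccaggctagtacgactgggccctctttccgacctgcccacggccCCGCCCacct
Pdk2 promoter: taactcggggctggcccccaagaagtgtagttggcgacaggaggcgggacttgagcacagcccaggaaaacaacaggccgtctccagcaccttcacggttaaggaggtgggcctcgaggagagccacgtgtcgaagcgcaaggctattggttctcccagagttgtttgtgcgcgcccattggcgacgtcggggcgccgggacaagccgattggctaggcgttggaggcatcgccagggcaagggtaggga
Dlat promoter: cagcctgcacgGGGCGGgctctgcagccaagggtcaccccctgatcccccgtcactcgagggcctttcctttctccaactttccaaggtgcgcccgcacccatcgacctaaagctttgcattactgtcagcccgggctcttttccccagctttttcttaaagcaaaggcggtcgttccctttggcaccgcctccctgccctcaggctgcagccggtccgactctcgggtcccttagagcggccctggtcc
Hadh promoter: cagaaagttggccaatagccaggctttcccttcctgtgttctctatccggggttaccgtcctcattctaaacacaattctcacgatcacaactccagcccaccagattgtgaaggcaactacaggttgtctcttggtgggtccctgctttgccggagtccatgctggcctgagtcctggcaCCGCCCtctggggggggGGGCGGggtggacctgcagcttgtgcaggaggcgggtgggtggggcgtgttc
The Slc25a20 window held 3 GC boxes and 1 ETS-family match, that of Hadh 2 GC boxes, that of Dlat 1, and that of Pdk2 0 of either. Of the 30 members with a window 18 (60%) held GGGCGG in at least 1 window, against 35.4% of 27025 genes with a window. Those 27025 genes were not limited to genes on the arrays or to genes expressed in muscle. CCGGAAG was in the windows of Idh3g, Cpt2 and Slc25a20, 10.0% of the members and 7.8% of all genes. The half-site AAGGTCA, known from oestrogen-related receptors, was in that of Acadm alone (3.3% of members, 4.7% of all genes). Both strands were read, and overlapping matches of different motifs were counted separately. A match describes these letters and not a bound site.

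In triceps, the same contrast gave 0 called members of 33, against 0.239% of all tested probe sets (18, with 1145 at an unadjusted p under 0.05). The members nevertheless lay mostly on one side: 29 had a log2 change below 0 and 4 above, while 51.8% of all tested probe sets were above 0. The median log2 change was -0.26 over the members and 0.01 over all tested probe sets. By role it was -0.23 in pyruvate entry, -0.32 in the TCA cycle and -0.22 in fatty-acid oxidation. The 33 changes ran between -0.51 and 0.15. Every marker list also had a median below 0 in this comparison, with 0 of their genes called. It was -0.64 for skeletal muscle markers, -0.78 for fast-fibre and -0.42 for slow-fibre sarcomere genes. Endothelial markers had -0.43, Schwann cell and nerve markers -0.49, fibroblast markers -0.33, adipocyte markers -0.23 and macrophage markers -0.0078. The part of these lists in the members' changes was not tested. Hadhb and Slc25a20 were below 0, but their second probe sets had higher means in SOD1 than in NTg triceps. These were 10.46 against 10.28 for Hadhb and 7.93 against 7.74 for Slc25a20.

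Idh2, the NADP-dependent mitochondrial isocitrate dehydrogenase, had the lowest change. Its log2 signals were 8.52, 8.12, 7.67 and 8.61 in SOD1 triceps, against 8.89, 8.45, 8.79 and 8.80 in NTg triceps, and the groups overlapped. The means of 8.23 ± 0.43 and 8.73 ± 0.19 (SD, n = 4 each) gave a log2 change of -0.51 (95% interval -1.32 to 0.31, adjusted p = 0.526). Mdh2, the mitochondrial malate dehydrogenase that closes the cycle, had 11.77, 11.29, 11.72 and 11.27 in SOD1 and 11.91, 12.06, 12.13 and 11.54 in NTg triceps. Only NTg replicate 4 lay among the SOD1 arrays, and the change was -0.40 (adjusted p = 0.386). In pyruvate entry Pdk2 had 10.07, 9.95, 9.81 and 9.44 in SOD1 and 10.47, 9.81, 10.24 and 10.18 in NTg triceps, a change of -0.36 (adjusted p = 0.445). Pdha1 had 11.19, 10.72, 11.19 and 10.79 in SOD1 and 11.19, 11.29, 11.49 and 11.12 in NTg triceps, a change of -0.30 (adjusted p = 0.376). Both sets of arrays overlapped. A second probe set of Pdha1 had a change of 0.07.

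Among fatty-acid oxidation genes in triceps, Acaa2, the thiolase of the last step of a round of beta oxidation, had 8.98, 8.40, 8.62 and 8.53 in SOD1, against 9.05, 9.12, 9.14 and 8.76 in NTg. The log2 change was -0.39 (adjusted p = 0.571), while its other probe sets had 0.17 and -0.26. Hadh, the short-chain hydroxyacyl-CoA dehydrogenase, had 10.89, 10.73, 10.92 and 10.53 in SOD1 and 10.84, 11.16, 11.24 and 11.24 in NTg triceps. NTg replicate 1 lay among the SOD1 arrays, and the change was -0.35 (adjusted p = 0.511). In 3 genes every SOD1 triceps array lay below every NTg triceps array: Acadm, the medium-chain acyl-CoA dehydrogenase (10.22 to 10.37 against 10.54 to 10.58), Cpt2 (7.98 to 8.23 against 8.25 to 8.62) and Mdh1, the cytosolic malate dehydrogenase (10.37 to 10.76 against 10.77 to 11.06). Of all tested probe sets 6.99% were separated in this way, and 2.3% with all SOD1 arrays lower. Both other probe sets of Mdh1 overlapped, at 10.49 to 10.84 against 10.65 to 11.30 and at 10.53 to 10.93 against 10.69 to 10.94. Acadl had the highest change, 0.15 (adjusted p = 0.658). Endothelial markers summed to between 445 and 573 in SOD1 and to between 658 and 710 in NTg triceps, and skeletal muscle markers to the ranges given above; their part in the result was not tested. Without crush replicate 4 in the shared spread, 2.22% of probe sets and 0 members were called.

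An interaction term asked whether the SOD1 effect was unequal in gastrocnemius and triceps. By limma 0 of 7523 probe sets were called (710 at an unadjusted p under 0.05), and so 0 members were. Both muscles came from the same mice, which this fit does not use. With the replicate number as a random block, which no label ties to a mouse, limma also called 0 probe sets (1075 at an unadjusted p under 0.05). Slc25a20 had the largest difference between muscles, with a change of 0.56 in gastrocnemius and -0.14 in triceps, where it had 8.90, 8.33, 8.37 and 8.68 in SOD1 and 8.87, 8.78, 8.71 and 8.51 in NTg arrays. The difference was 0.71 (SE 0.23, 95% interval 0.23 to 1.19, adjusted p = 0.412). For Pdk2 it was -0.47 (adjusted p = 0.668), for Acaa2 0.47 (adjusted p = 0.772), for Idh2 0.37 (adjusted p = 0.851) and for Idh3g, a regulatory subunit of the NAD-dependent isocitrate dehydrogenase, 0.33 (adjusted p = 0.678). Idh3g had 10.91, 10.85, 10.55 and 10.65 in SOD1 and 10.61, 10.79, 10.80 and 10.76 in NTg gastrocnemius, and 10.76, 10.47, 10.52 and 10.51 in SOD1 and 10.73, 11.15, 11.11 and 10.59 in NTg triceps. For Pdk4 it was 0.33 (adjusted p = 0.879), with triceps values of 9.73, 9.93, 10.78 and 10.49 in SOD1 and 11.82, 9.89, 10.46 and 9.66 in NTg arrays. NTg replicate 1 was the highest Pdk4 array of both muscles. Second probe sets gave 0.03 for Slc25a20, -0.04 for Idh3g, and -0.29 and -0.19 for Acaa2. The median over the members was 0.22, with 25 of 33 above 0 (14 of 15 in fatty-acid oxidation) and 0.08 with the mean of each gene's probe sets, against -0.02 and 48.5% above 0 over all probe sets. Most marker lists had medians above 0 in this interaction too (Schwann cell and nerve markers had -0.04), with 0 of their genes called: 0.61 for skeletal muscle, 0.95 for fast-fibre and 0.71 for slow-fibre sarcomere genes, 0.90 for macrophage, 0.51 for fibroblast, 0.70 for adipocyte and 0.35 for endothelial markers. Their part in the result was not tested.

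**Figure D4:**
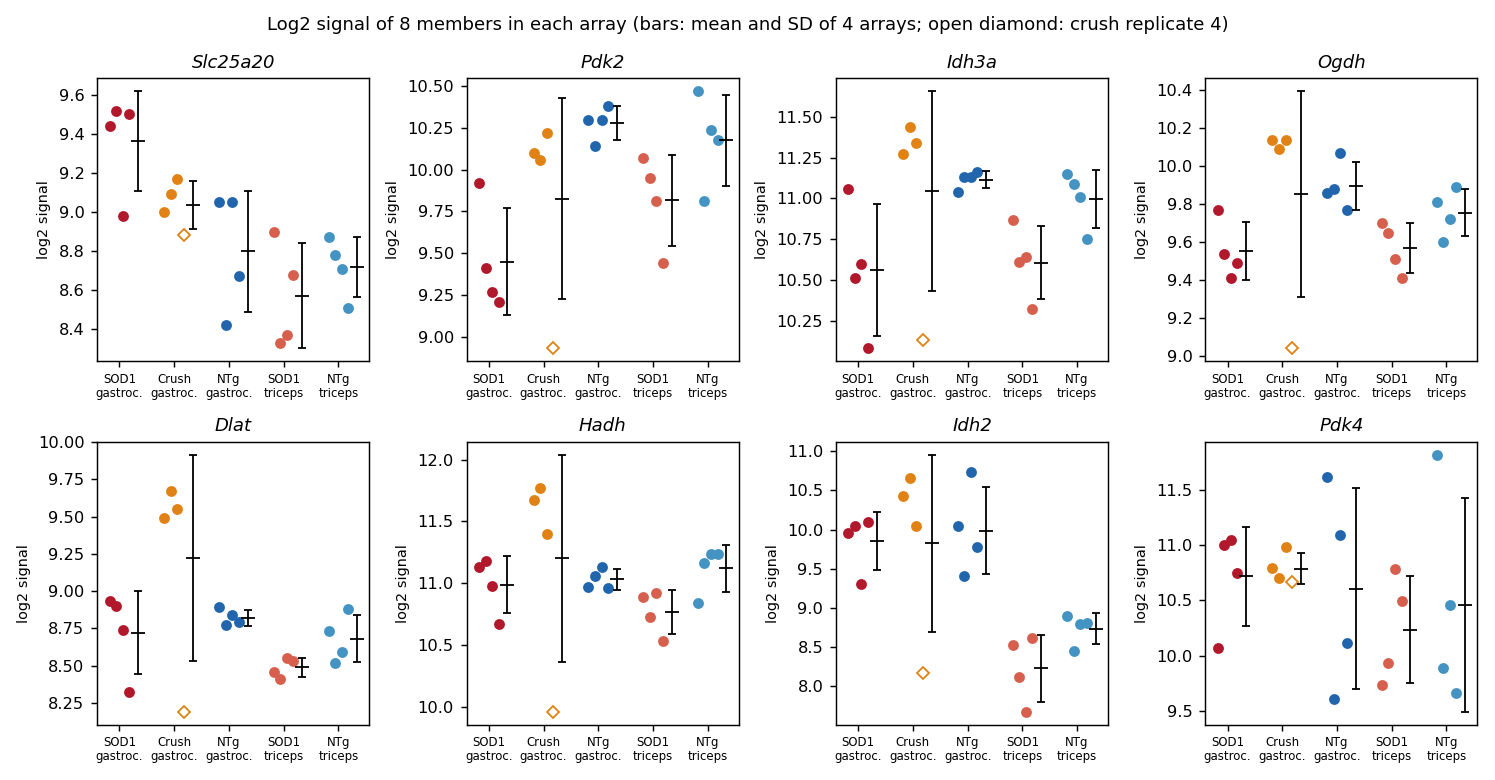
Log2 signal (vertical axis) of 8 members in each array of the 5 groups (horizontal axis), with the mean and SD of the 4 arrays as a bar and crush replicate 4 as an open diamond. All SOD1 gastrocnemius arrays of Pdk2 (9.21 to 9.92) lie below the NTg gastrocnemius arrays (10.14 to 10.38), and for Dlat crush replicates 1 to 3 (9.49 to 9.67) lie above all other gastrocnemius arrays.

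Crushed gastrocnemius was set against the same NTg arrays as SOD1 gastrocnemius, so the comparisons share their controls. With all 4 crush arrays 0 of 33 members were called, against 4.13% of all tested probe sets (311, or 1.08% higher and 3.06% lower). The members ran between -0.45 for Pdk2 (adjusted p = 0.268) and 0.40 for Dlat (adjusted p = 0.323), with 24 of 33 above 0 and a median of 0.15, against 52.7% above 0 and a median of 0.02 over all probe sets. Median changes by role were 0.28 in pyruvate entry, -0.0008 in the TCA cycle (0.03 under quantile scaling) and 0.17 in fatty-acid oxidation. The crush arrays overlapped the NTg arrays in all 33 members, while 16.4% of all tested probe sets had no overlap.

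Without crush replicate 4, 11 of the 33 members rose and 0 fell, against 5.25% of all probe sets called, 2.27% higher and 2.98% lower. Of these 3 belong to pyruvate entry, 1 to the TCA cycle and 7 to fatty-acid oxidation. The median log2 change was 0.36 over the members, with 32 above 0, while 52.4% of all probe sets were above 0. By role it was 0.42 in pyruvate entry, 0.23 in the TCA cycle and 0.47 in fatty-acid oxidation. For 20 members the arrays of crush replicates 1 to 3 all lay above the 4 NTg arrays, which held for 13.9% of all probe sets. Replicate 4 was the lowest crush array for all 33 members. Leaving it out therefore raised every member's crush mean, and it also changed the shared estimate of spread. The 11 calls were made only without replicate 4. The parts of the means and of the spread in these calls were not separated. The values of this setting rest on 3 crush arrays. In it slow-fibre sarcomere genes had a median log2 change of -0.48, fast-fibre genes 0.19 and skeletal muscle markers 0.15. Macrophage markers had 0.46, endothelial markers 0.22, fibroblast markers 0.11 and adipocyte markers -0.03. Schwann cell and nerve markers had -0.69, with Mbp the only marker called, as lower. The part of these lists in the result was not tested.

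In pyruvate entry, Dlat showed the largest rise. It had 9.49, 9.67 and 9.55 in crush replicates 1 to 3 and 8.19 in replicate 4, against 8.89, 8.77, 8.84 and 8.79 in NTg gastrocnemius. Replicates 1 to 3 lay above and replicate 4 below all NTg arrays. The log2 change without replicate 4 was 0.75 (SE 0.13, 95% interval 0.48 to 1.01, adjusted p = 0.00256), or 1.68-fold, and of 2 further probe sets 1 rose by 0.90 (adjusted p = 0.000405) and the other had 0.23 (adjusted p = 0.461). Dld had 9.61, 9.45 and 9.62 in replicates 1 to 3 and 9.09 in replicate 4, against 9.12, 9.16, 9.10 and 8.93 in NTg gastrocnemius. Its replicate 4 lay inside the NTg range, and the change was 0.48 without it (adjusted p = 0.0170) and 0.37 with it (adjusted p = 0.0961). Pdhb had 11.04, 11.22 and 10.93 in replicates 1 to 3 and 10.54 in replicate 4, against 10.60, 10.63, 10.63 and 10.60 in NTg gastrocnemius. It rose by 0.45 without replicate 4 (adjusted p = 0.0187), while its second probe set had 0.06 (adjusted p = 0.882). Pdk2 had 10.10, 10.06 and 10.22 in replicates 1 to 3 and 8.93 in replicate 4. It was the one member with a change below 0 without replicate 4, -0.15 (adjusted p = 0.675).

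Of the TCA cycle genes Dlst, the succinyltransferase of the oxoglutarate dehydrogenase complex, rose by 0.60 (SE 0.12, adjusted p = 0.00858). It had 9.39, 9.76 and 9.76 in crush replicates 1 to 3 and 8.32 in replicate 4, against 9.02, 8.96, 9.15 and 9.0 in NTg gastrocnemius. The other 11 did not pass, although all 12 had a change above 0. Idh3b, the other regulatory subunit of the NAD-dependent isocitrate dehydrogenase, had 10.02, 10.33 and 10.65 in replicates 1 to 3 and 9.28 in replicate 4, against 9.56, 10.00, 9.47 and 9.73 in NTg gastrocnemius. Its change was 0.64 (adjusted p = 0.0911), and a second probe set had -0.13. Cs had 0.19 (adjusted p = 0.526) and Idh3a 0.23 (adjusted p = 0.473).

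Fatty-acid oxidation held 7 of the rises, spread over transport, the acyl-CoA dehydrogenases, the later steps and electron transfer. Cpt2 had 8.84, 8.77 and 8.89 in crush replicates 1 to 3 and 7.27 in replicate 4, against 8.25, 8.27, 8.59 and 8.22 in NTg gastrocnemius, and rose by 0.50 without replicate 4 (adjusted p = 0.0230). Acadvl, the very long-chain acyl-CoA dehydrogenase, had 10.54, 10.60 and 10.52 in replicates 1 to 3 and 9.35 in replicate 4, against 10.06, 9.84, 10.43 and 9.85 in NTg gastrocnemius, and rose by 0.51 (adjusted p = 0.0295). Acads, the short-chain enzyme of that family, had 8.53, 8.68 and 8.51 and, in replicate 4, 7.98, against 7.94, 8.03, 8.13 and 8.04 in NTg gastrocnemius, and rose by 0.54 (adjusted p = 0.0280). In each of these genes replicates 1 to 3 lay above all NTg arrays, and for Cpt2 and Acadvl replicate 4 lay below them.

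The later steps showed the same split of the crush arrays. Hadh had 11.67, 11.77 and 11.40 in crush replicates 1 to 3 and 9.96 in replicate 4, against 10.97, 11.06, 11.13 and 10.96 in NTg gastrocnemius, and rose by 0.58 (SE 0.14, adjusted p = 0.0226) without replicate 4. Acaa2 had 9.87, 10.10 and 9.80 in replicates 1 to 3 and 7.80 in replicate 4, against 9.30, 9.18, 9.59 and 8.97 in NTg gastrocnemius, and rose by 0.66 (adjusted p = 0.0366). Decr1, a reductase needed for unsaturated fatty acids, had 9.49, 9.58 and 9.51 and, in replicate 4, 8.89, against 9.23, 8.97, 9.06 and 8.87 in NTg gastrocnemius, and rose by 0.50 (adjusted p = 0.0326). A second probe set of Hadh also rose, by 0.62 (adjusted p = 0.00956), while its remaining one (0.63), the others of Acaa2 (0.61 and 0.46) and that of Decr1 (0.40) did not pass. Etfdh, which hands electrons of acyl-CoA oxidation to ubiquinone, had 9.23, 9.30 and 9.42 in replicates 1 to 3 and 8.13 in replicate 4, against 8.91, 8.66, 9.18 and 8.64 in NTg gastrocnemius, and rose by 0.47 (adjusted p = 0.0332). Etfa and Etfb, the subunits of the electron carrier before it, had 0.36 (adjusted p = 0.0943) and 0.31 (adjusted p = 0.162). Slc25a20 had 9.0, 9.09 and 9.17 in crush replicates 1 to 3 and 8.88 in replicate 4, a change of 0.29 without replicate 4 (adjusted p = 0.358).

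**Figure D5:**
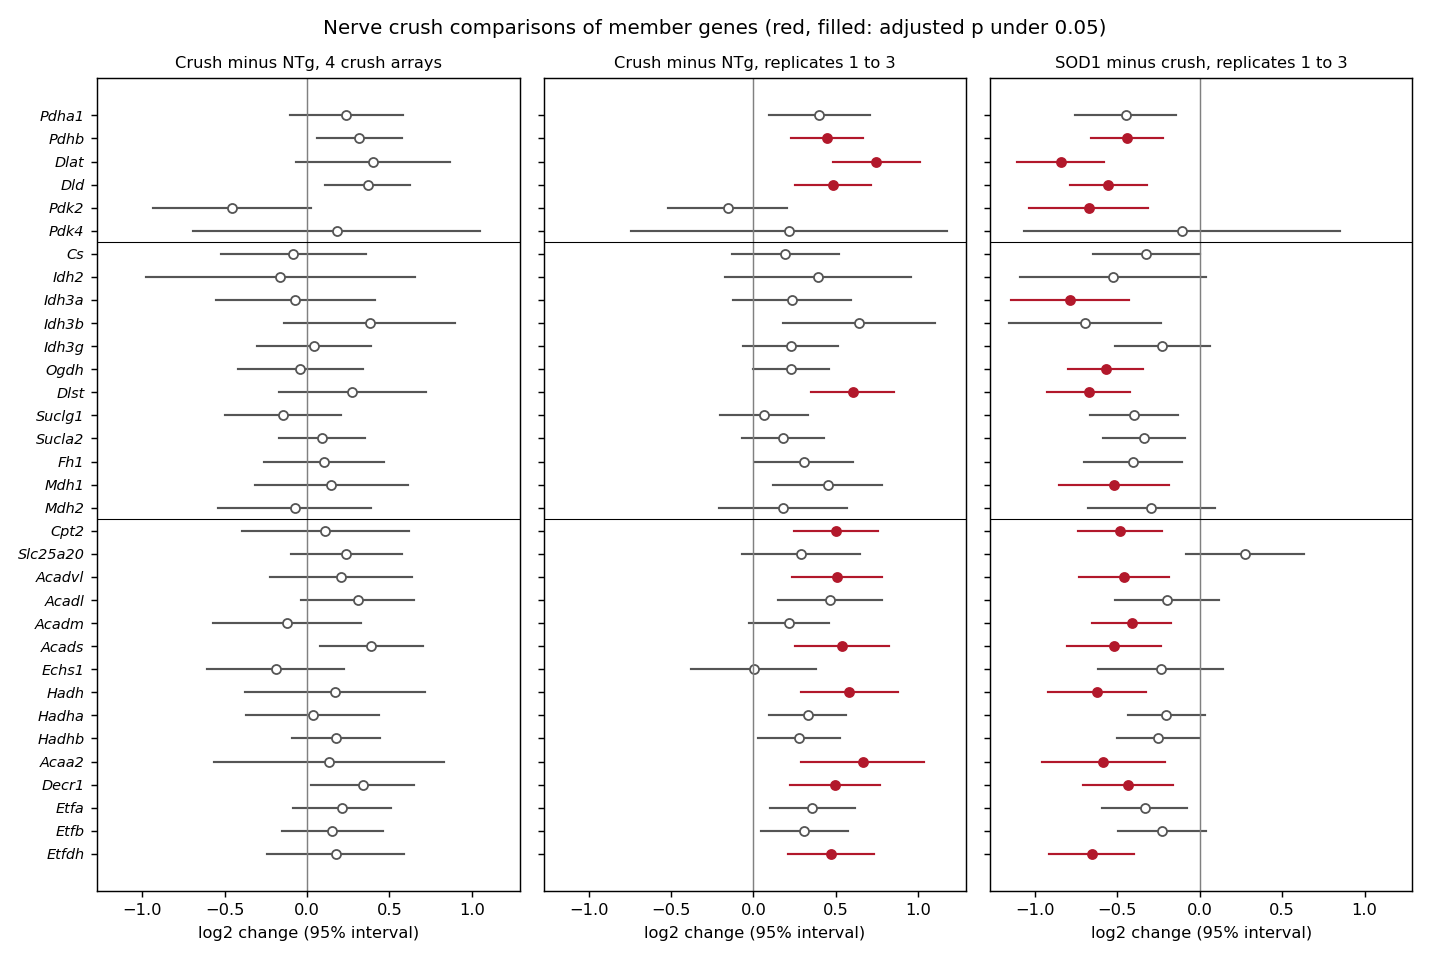
Log2 change with 95% interval (horizontal axis) of each member (vertical axis) for crush minus NTg gastrocnemius with 4 crush arrays, for the same comparison with crush replicates 1 to 3, and for SOD1 minus crush gastrocnemius with crush replicates 1 to 3. Filled red points passed an adjusted p of 0.05: 0 members, 11 members and 16 members.

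SOD1 gastrocnemius was also set against crushed gastrocnemius directly. With all 4 crush arrays 0 of 7523 probe sets were called (940 at an unadjusted p under 0.05), and so 0 members were; the median over the members was -0.19, with 30 below 0. Without crush replicate 4, 16 members were lower in SOD1 than in crushed muscle and 0 higher, against 4.29% of all probe sets called lower and 3.74% called higher. The median was -0.44 over the members, with 32 below 0; by role it was -0.50 in pyruvate entry, -0.46 in the TCA cycle and -0.41 in fatty-acid oxidation. In 22 members all SOD1 arrays lay below crush replicates 1 to 3, as in 12.7% of all probe sets. Leaving out replicate 4, the lowest crush array for every member, lowered every member's change in this comparison. The member above 0 was Slc25a20, at 0.28 (adjusted p = 0.333), and its second probe set had -0.16. Markers of other cell types moved in the same setting: the 6 endothelial markers had a median of -0.42 with 1, Cdh5, which fell by 0.55 on the log2 scale (adjusted p = 0.0221), and the 7 macrophage markers had a median of 0.57 with 1, Lgals3, higher by 1.94 (adjusted p = 0.0104). Slow-fibre sarcomere genes had a median of 0.85, adipocyte markers 0.49, and Schwann cell and nerve markers 0.44. Fibroblast markers had 0.105, skeletal muscle markers -0.04 and fast-fibre sarcomere genes -0.0088, and 0 genes of these lists were called. Endothelial markers summed to between 518 and 700 in SOD1 arrays and to between 699 and 891 in crush replicates 1 to 3, and macrophage markers to between 1340 and 2090 and to between 808 and 1260. Their part in the result was not tested.

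Dlat differed most, with 8.93, 8.90, 8.74 and 8.32 in SOD1 gastrocnemius, below the 9.49 to 9.67 of crush replicates 1 to 3. Its log2 change was -0.85 (SE 0.13, 95% interval -1.11 to -0.58, adjusted p = 0.00110). Pdk2, with its 4 SOD1 arrays at 9.21 to 9.92 and crush replicates 1 to 3 at 10.06 to 10.22, fell by 0.67 (adjusted p = 0.0234). Dld, at 9.15, 9.05, 9.0 and 8.81 in SOD1 arrays, fell by 0.56 (adjusted p = 0.00714). Pdhb, at 10.67, 10.69, 10.64 and 10.48, fell by 0.44 (adjusted p = 0.0151), while its second probe set had 0.04. None of the SOD1 arrays of these genes reached the lowest of crush replicates 1 to 3. Both other Dlat probe sets fell as well (by 1 and 0.87), as did the second one of Pdha1, by 0.99 (adjusted p = 0.0276), where its first had -0.45 (adjusted p = 0.0605).

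In the TCA cycle, Idh3a fell by 0.79 (SE 0.17, adjusted p = 0.0106): its crush replicates 1 to 3 were at 11.27, 11.44 and 11.34 and replicate 4 at 10.13, inside the SOD1 range of 10.08 to 11.06. Its other probe sets fell by 1.11 (adjusted p = 0.00691) and 0.78 (adjusted p = 0.0369). Dlst, at 9.10, 8.74, 9.07 and 8.93 in SOD1 arrays, fell by 0.68 (adjusted p = 0.00431). Ogdh fell by 0.57 (adjusted p = 0.00590), with 10.14, 10.09 and 10.14 in crush replicates 1 to 3 and 9.04 in replicate 4, against which its SOD1 arrays stood at 9.41 to 9.77. Mdh1 had 11.35, 11.21, 11.21 and 10.72 in SOD1 arrays and 11.77, 11.86 and 11.30 in crush replicates 1 to 3, with 10.43 in replicate 4. It fell by 0.52 (adjusted p = 0.0493), with SOD1 replicate 1 above crush replicate 3, and 2 further probe sets of it did not pass. Idh3b, at 9.64, 9.75, 9.64 and 9.52 in SOD1 arrays, had a change of -0.70 (adjusted p = 0.0571). Cs had -0.33 (adjusted p = 0.197), while 1 of its other probe sets fell by 0.76 (adjusted p = 0.0224).

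Fatty-acid oxidation gave 8 of the lower genes. Etfdh, at 8.69, 8.73, 8.73 and 8.50 in SOD1 arrays, fell by 0.66 (adjusted p = 0.00540), and Hadh, at 11.13, 11.18, 10.98 and 10.67, by 0.62 (adjusted p = 0.0130). Acaa2, at 9.61, 9.52, 9.37 and 8.86, fell by 0.58 (adjusted p = 0.0496), and Acads, at 8.41, 8.04, 7.88 and 7.88, by 0.52 (adjusted p = 0.0250). All of these arrays lay below crush replicates 1 to 3 of the same gene. Cpt2, at 8.42, 8.51, 8.18 and 8.28, fell by 0.48 (adjusted p = 0.0211), and Acadvl, at 10.24, 10.07, 10.20 and 9.86, by 0.46 (adjusted p = 0.0357). Decr1, at 9.18, 9.23, 9.03 and 8.92, fell by 0.44 (adjusted p = 0.0455). Acadm, at 10.72, 10.67, 10.46 and 10.36 in SOD1 arrays and 10.96, 11.06 and 10.88 in crush replicates 1 to 3, fell by 0.41 (adjusted p = 0.0335), and its replicate 4 lay at 9.62. Second probe sets of Hadh, Acaa2 and Decr1 fell too, by 0.78, 0.74 and 0.56 (adjusted p = 0.00226, 0.0189 and 0.0209). The remaining probe set had a mean of 6.30 in SOD1 arrays against 6.98 in crush replicates 1 to 3 for Hadh. For Acaa2 it had 7.72 against 8.63. With replicate 4 in the crush group none of these genes passed, and the log2 change was -0.36 for Etfdh, -0.21 for Hadh, -0.09 for Cpt2 and -0.08 for Acadm.

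The muscles of NTg mice were compared as a baseline. None of the 33 members was called between gastrocnemius and triceps, against 1.71% of all tested probe sets (129, or 1.52% higher and 0.199% lower). The median log2 change was 0.14 over the members, with 21 above 0, and -0.03 over all probe sets, of which 45.1% were above 0. Idh2 had 10.04, 9.41, 10.73 and 9.78 in gastrocnemius, against 8.89, 8.45, 8.79 and 8.80 in triceps. Every gastrocnemius array lay above every triceps array, as in 4.61% of all probe sets; the only other member with this pattern was Acadm. The Idh2 means of 9.99 ± 0.56 and 8.73 ± 0.19 (SD, n = 4 each) gave a log2 change of 1.25 (95% interval 0.44 to 2.07, adjusted p = 0.111), or 2.38-fold, which passed without crush replicate 4 in the shared spread (adjusted p = 0.0118). Both muscles came from the same mice, which this fit does not use; with the replicate number as a random block, which no label ties to a mouse, Idh2 also passed (adjusted p = 0.0335) and 361 probe sets were called, and with it as a fixed block Idh2 did not (adjusted p = 0.108). Pdha1 had 11.58, 11.45, 11.48 and 11.49 in gastrocnemius and the triceps values given above, a change of 0.23 (adjusted p = 0.584). Its second probe set was called, with 9.96, 9.72, 10.08 and 9.77 in gastrocnemius and 9.57, 8.17, 8.24 and 8.47 in triceps, a change of 1.27 (adjusted p = 0.0204).

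Other members differed less between the muscles. Idh3b had 10.15, 9.88, 10.06 and 10.91 in NTg triceps, a change of -0.56 (adjusted p = 0.296) from the overlapping gastrocnemius values given above. Dld had 8.96, 8.70, 8.58 and 8.79 in triceps, a change of 0.32 (adjusted p = 0.217), and Acadl 9.97, 9.57, 9.6 and 9.80, a change of 0.30 (adjusted p = 0.434). Echs1 had 8.72, 9.03, 9.26 and 8.71 in gastrocnemius and 8.93, 8.12, 8.61 and 8.99 in triceps, a change of 0.27 (adjusted p = 0.587). All 9 slow-fibre sarcomere genes were called higher in gastrocnemius. They summed to only 337 to 1890 in NTg triceps, a low signal, so the size of that difference is not given. Their part in the Idh2 difference was not tested.

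Neighbours of the members in the same pathways were compared in SOD1 gastrocnemius, where 5.97% of all tested probe sets rose and 6.02% fell. Of 12 tested TCA and shuttle genes 0 rose and 2 fell: Me1, the cytosolic malic enzyme, by 1.26 (SE 0.26, adjusted p = 0.00760) and Gpt2, the mitochondrial alanine aminotransferase, by 1.69 (SE 0.41, adjusted p = 0.0156). Me1 had 8.71, 8.41, 8.13 and 8.03 in SOD1 and 9.53, 9.6, 9.49 and 9.70 in NTg gastrocnemius, with no overlap. Both also fell in crushed muscle with all 4 crush arrays (Me1 by 1.2, adjusted p = 0.0155, and Gpt2 by 1.5, adjusted p = 0.0443), against the same NTg arrays; without crush replicate 4 Gpt2 was no longer called and Me1 was (adjusted p = 0.0142). Of 19 other fatty-acid and ketone oxidation genes 1 rose in SOD1 gastrocnemius, Acsl6, a long-chain acyl-CoA synthetase, which had 8.42, 8.74, 8.57 and 9.22 in SOD1 and 7.34, 7.33, 7.44 and 7.67 in NTg arrays. Its log2 change was 1.30 (SE 0.31, adjusted p = 0.0145), or 2.45-fold. Of 5 other pyruvate genes 0 were called.

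Among 9 tested regulators 1 rose and 2 fell in SOD1 gastrocnemius, against 5.97% and 6.02% of all tested probe sets. Foxo1, a transcription factor of fasting and atrophy, was higher by 0.72 on the log2 scale (adjusted p = 0.0167). Rxra and Rxrg, partners of nuclear receptors that include the PPARs, fell by 0.69 (adjusted p = 0.0160) and 1.21 (adjusted p = 0.0476). Rxra also fell in crushed against the same NTg muscle, by 0.95 (adjusted p = 0.00459) with all 4 crush arrays. Its log2 change was -0.91 without crush replicate 4 (adjusted p = 0.00894). Ppargc1a, the coactivator known for mitochondrial biogenesis, did not pass in any of the 6 comparisons; it had 6.48, 6.38, 6.14 and 5.85 in SOD1, 6.26, 6.72, 6.82 and 5.70 in crushed and 6.27, 6.64, 6.43 and 6.69 in NTg gastrocnemius. In triceps 0.239% of all tested probe sets were called higher. Nrip1, a corepressor of oxidative metabolism genes in mouse muscle, rose there by 1.28 (adjusted p = 0.0437). Its log2 signals were 7.86, 6.87, 6.71 and 7.10 in SOD1 and 5.13, 5.63, 6.09 and 6.58 in NTg triceps, without overlap. Of the NTg arrays 2 lay under 5.88, the mean below which probe sets were left out. The size of this rise therefore rests in part on low signal.

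Without crush replicate 4, 8 of these neighbours were lower in SOD1 than in crushed gastrocnemius and 1 higher; over all tested probe sets 4.29% were lower and 3.74% higher. They were the succinate dehydrogenase subunits Sdha, Sdhc and Sdhd (by 0.46, 0.57 and 0.70, adjusted p = 0.0394, 0.0100 and 0.0135) and Got1, the cytosolic aspartate aminotransferase (by 0.76, adjusted p = 0.0208), 4 of 12 TCA and shuttle genes. Oxct1, which activates ketone bodies (by 0.50, adjusted p = 0.0211), Acot13, an acyl-CoA thioesterase, and Ech1, an isomerase of unsaturated fatty acids, made 3 lower of the 19 fatty-acid and ketone genes, while Acsl6 was higher by 0.85 (adjusted p = 0.0455). Esrra, the oestrogen-related receptor known for driving oxidative metabolism genes, fell by 0.60 (adjusted p = 0.0163), 1 of 9 regulators. It had 7.46, 7.31, 7.47 and 7.12 in SOD1 arrays, against 7.86, 7.88 and 8.07 in crush replicates 1 to 3, and 6.5 in replicate 4. Against NTg gastrocnemius the crush arrays without replicate 4 gave rises of Ech1 (0.50, adjusted p = 0.0366) and Eci2, another enoyl-CoA isomerase (0.59, adjusted p = 0.0380), 2 of those 19 genes, against 2.27% of all probe sets called higher. In NTg mice Ldhb, the heart-type lactate dehydrogenase chain, was 2.36-fold higher in gastrocnemius than in triceps (adjusted p = 0.0141). Bdh1, the ketone body dehydrogenase, had 7.04, 6.70, 7.96 and 7.16 in NTg gastrocnemius, against 4.55 to 4.87 in NTg triceps, where it lay under the 5.88 below which probe sets were left out; it passed that filter through gastrocnemius, so no fold is given.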

How the data were processed

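Expression in 20 muscle samples was measured on Affymetrix arrays; per the labels, biotinylated cRNA was made from 4 ug of total RNA. The deposited values are MAS5 signals, per the submitters' processing notes, and are on a log2 scale, as their range of -3.66 to 13.3 shows; the sources used here name neither its version and target nor a filter. Array medians were 6.61 to 6.76, so no further scaling was applied. MAS5 subtracts mismatch signal, which makes dim probe sets noisy. Of 10748 probe sets, 9874 had 1 platform symbol, 387 several and 487 none, and 9862 matched RefSeq (GRCm38.p6) by gene ID. The lowest 30% by mean (under 5.88) were left out, leaving 7523 and 53 of the 54 member probe sets; the 1 left out was a second probe set of Cpt2.

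With limma 3.58.1, 1 mean per group was fitted over the 20 arrays (R 4.3.3, eBayes with trend, 15 residual degrees of freedom). Benjamini-Hochberg adjustment covered the 7523 probe sets in each of 6 comparisons, and an adjusted p under 0.05 was called. The fit was tested on simulated data. Members, lists and the rule for named genes (called members and the 2 largest changes per role) were chosen with earlier results of these data known. No label ties replicate numbers to mice; same-numbered arrays did not all deviate together (r over 0.1 in 3 of 4 pairs at most), so they were not paired. Alternatives were other scalings and filters, fits to the compared arrays alone, a fixed or random block for the replicate number, no trend, mean of probe sets, and leaving out arrays. Precision is limited by the number of arrays.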

Additional observations from a re-analysis of the deposited data

Results flagged for a closer look

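Within the groups of 4 arrays, 22 of 165 sets of member values held 1 array whose gap to the nearest other array was past Dixon's 95% critical value; chance gives about 1 in 20. Of these, 13 were low values of crush replicate 4: Dlat at 8.19, Pdk2 at 8.93, Idh3a at 10.13, Ogdh at 9.04, Suclg1 at 9.58, Cpt2 at 7.27, Acadvl at 9.35, Acadl at 9.87, Acadm at 9.62, Hadha, the alpha chain of the trifunctional protein, at 9.03, Acaa2 at 7.80, Decr1 at 8.89 and Etfdh at 8.13. The nearest other crush array lay at 9.49 for Dlat, 10.06 for Pdk2, 10.40 for Suclg1 and 9.80 for Acaa2.

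The other 9 were spread over the groups. In SOD1 gastrocnemius Slc25a20 was low in replicate 3, at 8.98, which is the array that overlaps NTg, and Etfdh was low in replicate 4, at 8.50. In SOD1 triceps Cpt2 was high in replicate 1, at 8.23, and Acads was low in replicate 2, at 7.31. In NTg gastrocnemius Idh3g was low in replicate 1, at 10.61, Sucla2, a subunit of succinyl-CoA ligase, was low in replicate 4, at 10.86, and Cpt2 and Acadm were high in replicate 3, at 8.59 and 11.04. In NTg triceps Acadvl was high in replicate 1, at 9.95.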

How the results depend on the processing

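The log2 changes of members named above kept direction and side of the threshold in 923 of 990 recomputed values. In the main fit only Pdk2 and Slc25a20 were called, both in SOD1 gastrocnemius. The other named changes counted as kept when they stayed uncalled in the same direction. Fits without trend or to the compared arrays alone leave the log2 change itself unaltered. Leaving out single arrays moved the median over the members between 0.0436 and 0.36 in crush against NTg, between -0.44 and -0.0895 in SOD1 against crush, between 0.13 and 0.28 in the interaction, between -0.28 and -0.23 in triceps and between 0.08 and 0.17 in NTg muscles; with the mean of each gene's probe sets the interaction's median was 0.08. In SOD1 gastrocnemius 2 members were called, 4 with the compared arrays alone, and 0 to 4 on leaving out single arrays; the median ran from -0.12 to 0.0275, above 0 without SOD1 replicate 4. Leaving out single arrays gave 0 to 11 calls in crush against NTg and 0 to 16 in SOD1 against crush, with calls only without crush replicate 4. Between NTg muscles it gave 0 or 1, and 1 (Idh2) with the compared arrays alone or the replicate number as a random block in place of the mouse. Directions also turned: Pdk4 in SOD1 gastrocnemius (-0.22 to 0.45) and in the interaction (-0.12 to 0.67), Cpt2 (-0.0382 to 0.50), Hadh (-0.0191 to 0.58) and Acaa2 (-0.10 to 0.66) in crush, and Cpt2 (-0.48 to 0.0549), Acadm (-0.41 to 0.0657) and Acaa2 (-0.58 to 0.18) in SOD1 against crush. With the mean of a gene's probe sets the interaction of Acaa2 was -0.0054. In the fit with the replicate block, 3 members were called in SOD1 gastrocnemius (Idh3a added, adjusted p = 0.0401) and 0 in the other comparisons. Medians over all members kept their sign under quantile scaling and under subtraction of the 75th percentile.

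Counts over all probe sets moved more. For SOD1 against NTg gastrocnemius 902 were called, 1768 with the compared arrays alone, 594 with gene means, and 178 (without SOD1 replicate 4) to 1341 (without crush replicate 4) on leaving out arrays. In triceps the 18 calls became 9 with either other scaling or gene means, 7 with the stricter filter, 27 with the compared arrays alone, 104 with the replicate block, and 3 to 167 without single arrays. For crush the 311 became 494 with the replicate block and 94 to 395 without single arrays. The 129 between NTg muscles became 80 with the stricter filter, 53 with gene means, 361 with the random block and 30 to 327 without single arrays. SOD1 against crush had 0, with 604 without crush replicate 4 and 2 without SOD1 gastrocnemius replicate 1. The interaction had 0, with 34 without NTg triceps replicate 1 and 1 without SOD1 gastrocnemius replicate 1. The cause was not tested.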
